A study of Mus musculus with 24 samples.

Results

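The 5 peptide precursor genes followed here were Avp, Oxt, Pdyn, Gal and Cartpt, which are 5 of the 22274 genes listed in the deposited table. They were chosen by name as the magnocellular hormones and the peptides often found in the same hypothalamic neurons, and their expression was read in every library. Avp encodes the precursor of arginine vasopressin and Oxt that of oxytocin, each together with its carrier protein, a neurophysin. Pdyn encodes prodynorphin, the source of the opioid dynorphins, Gal encodes the precursor of galanin, and Cartpt encodes the precursor of CART peptide.

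Magnocellular neurons of the supraoptic nucleus (SON) and the paraventricular nucleus (PVN) make vasopressin or oxytocin and send their axons through the pituitary stalk to the posterior pituitary, where both hormones are released into the blood. Vasopressin acts on the kidney to retain water, and oxytocin acts on the uterus, the mammary gland and other brain regions. Dynorphins and galanin are known as co-transmitters of these cells, whereas CART is made by many hypothalamic neurons besides them.

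RNA was sequenced from male C57BL/6J mice in 8 groups of 3 libraries each. The hypothalamic groups were Sham, PEL_3d and PEL_10d, where PEL is a pituitary stalk electrical lesion and the number is the day after it, and Sham_GH, PEL_3d_GH and PEL_10d_GH, in which growth hormone (GH) was given as well. The hippocampal groups were HIP_Sham and HIP_PEL_10d. All Sham libraries carry the label day 0, so the day after surgery and the lesion cannot be told apart in a comparison with Sham, and the dose of GH, the age of the mice and the pooling of animals are not given in the sources used here. The hypothalamic tissue was dissected so as to contain the SON and PVN, and the labels do not say that each library came from its own mouse, so p-values measure only the spread between these libraries.

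A pair of libraries went against the tissue that their titles name. In the library labelled Sham 1 the summed level of 11 hypothalamic marker genes was 6.004 FPKM (fragments per kilobase of transcript, scaled to library size) against 798 to 1096 FPKM in the other Sham libraries, and that of 14 hippocampal marker genes was 395 FPKM against 78.6 to 86.1. In the library labelled HIP_Sham 1 the same sums were 831 FPKM and 77.3 FPKM, which lies in the range of the hypothalamic libraries. Both were left out of the values below, which leaves 17 hypothalamic and 5 hippocampal libraries with 2 in Sham and 2 in HIP_Sham. Total counts were 15095267 to 17973494 per library. PEL_10d_GH 3 carried 5479 FPKM of Pomc, the pro-opiomelanocortin gene, and 76.1 FPKM over 8 anterior pituitary markers, the highest of all libraries for both. The summed level of 10 microglia and macrophage markers was 79.7 to 86.4 FPKM in Sham, 489 to 626 FPKM in PEL_3d and 190 to 294 FPKM in PEL_10d, and that of 10 neuron markers was 1939 to 2014, 1530 to 1708 and 1681 to 1844 FPKM in the same groups. A list of 4 genes was chosen to mark pituicytes, the glia of the posterior pituitary. Its sum was 46.4 to 46.7 FPKM in Sham, 27.3 to 38.3 FPKM in PEL_3d and 33.4 to 47.1 FPKM in PEL_10d. The same sum was 20.1 to 20.7 FPKM in HIP_Sham and 19.4 to 26.2 FPKM in HIP_PEL_10d, so these genes are not particular to pituicytes. In bulk tissue, fewer cells of a type and less RNA per cell cannot be told apart, and the part of cell composition in the values below was not tested.

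Avp and Oxt lie side by side on chromosome 2 of GRCm38. Avp occupies chr2:130580620-130582554 on the minus strand and Oxt chr2:130576173-130577054 on the plus strand, so that their 3′ ends face each other across 3565 bases. Pdyn lies on the same chromosome at chr2:129686565-129699844 on the minus strand. Gal lies at chr19:3409915-3414544 and Cartpt at chr13:99898489-99901091, both on the minus strand. None of the 5 genes overlaps another annotated gene.

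The transcripts of Avp and Oxt share an identical run of 127 bases, which is shown because reads inside it fit both genes. It lies wholly in the coding sequence, in the part that encodes neurophysin, and spans exons 1 and 2 of 3 in each gene. In Avp it covers transcript bases 144 to 270 of 577 (22.0%), within chr2:130581133-130582411, and in Oxt it covers bases 156 to 282 of 537 (23.7%), within chr2:130576328-130576715. The run reads 5′ to 3′ on the coding strand as follows.

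Avp and Oxt: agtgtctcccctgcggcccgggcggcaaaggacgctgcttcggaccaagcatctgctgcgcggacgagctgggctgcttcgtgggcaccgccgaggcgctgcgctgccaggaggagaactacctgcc

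The deposited counts carried a trace of this shared run. Avp had a count with decimals in 13 of 24 libraries, whereas the counts of Avp and Oxt added together were whole numbers in 24 of 24 libraries (within 0.005 counts). The counts of Pdyn, Gal and Cartpt had decimals in 0 libraries. The split between Avp and Oxt therefore holds an estimated share of reads, and the sum of both genes is given beside the results in which it matters.

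The promoters of both hormone genes are shown because the results turn on these genes. Each is the 250 bases before the RefSeq start on GRCm38.p6, 5′ to 3′ on the strand of the gene, with capitals for the motifs found among AGGTCA (a nuclear receptor half-site), CACGTG (an E-box), TGACGTCA (a cAMP response element), TGANTCA (an AP-1 site) and TATAAA, searched on both strands.

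Oxt, chr2:130575919-130576168, plus strand: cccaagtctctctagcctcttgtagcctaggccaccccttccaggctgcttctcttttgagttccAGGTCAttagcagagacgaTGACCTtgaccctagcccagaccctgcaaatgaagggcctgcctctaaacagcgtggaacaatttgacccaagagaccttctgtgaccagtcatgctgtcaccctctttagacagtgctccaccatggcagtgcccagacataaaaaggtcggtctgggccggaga

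Avp, chr2:130582589-130582838, minus strand: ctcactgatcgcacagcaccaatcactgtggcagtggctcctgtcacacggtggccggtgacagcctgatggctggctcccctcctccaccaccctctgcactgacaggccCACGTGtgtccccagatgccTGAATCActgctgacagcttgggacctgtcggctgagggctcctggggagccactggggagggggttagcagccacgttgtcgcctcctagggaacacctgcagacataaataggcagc

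The Oxt promoter held AGGTCA on the plus strand 185 to 180 bases before the start and its complement TGACCT 166 to 161 bases before it, and 14.0% of 32851 RefSeq promoters hold this motif. The Avp promoter held CACGTG 139 to 134 bases before the start (6.02% of promoters) and TGAATCA 119 to 113 bases before it (6.75% of promoters hold TGANTCA). In the Cartpt promoter TGACGTCA lay 112 to 105 bases before the start (1.55% of promoters), and no match was found for Gal and Pdyn. Such matches describe the letters only.

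The question of the first comparison was how the peptide genes stood 3 days after the lesion. Avp was lowest here and Gal highest, and all 5 genes differed from Sham by the quasi-likelihood test of edgeR, adjusted after Benjamini-Hochberg over 14905 genes. Of all genes tested, 40.5% passed the threshold of 0.05, with 22.2% higher and 18.2% lower, so the count of 5 stands against a high background. The median log2 fold change over all genes was -0.011, but as a signed value it does not show how large changes usually were. That median was -0.33 over 10 neuron markers and -0.68 over 11 hypothalamic markers, beside -0.32 for Cartpt and -0.59 for Pdyn.

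Avp was measured at 139.9 and 223.2 FPKM in the Sham libraries, against 31.8, 28.2 and 21.6 FPKM in PEL_3d. Every PEL_3d library was thus far below both Sham libraries. The log2 fold change was -2.76 (standard error, SE, 0.19, edgeR adjusted p = 1.83e-06), which is 6.76-fold lower. Left-out libraries moved it between -3.05 and -2.40.

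Oxt was measured at 89.0 and 222.4 FPKM in the Sham libraries, against 68.2, 77.9 and 29.8 FPKM in PEL_3d. The groups did not overlap, but the lower Sham library stood close to the upper PEL_3d library, and the Sham libraries themselves differed by more than they did for Avp. The log2 fold change was -1.43 (SE 0.38, edgeR adjusted p = 0.0119). Without Sham 3 it was -0.64, and DESeq2 gave -1.42 with an adjusted p of 0.0903. The adjusted p spanned 0.00158 to 0.748 over the alternatives, and the highest came with the library labelled Sham 1 kept.

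The summed row of Avp and Oxt does not depend on how shared reads were divided. Its log2 fold change at day 3 was -2.02 (adjusted p = 3.11e-04, edgeR). The 2 hormone genes as a sum were thus lower in PEL_3d than in Sham.

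Gal moved the other way. It was measured at 42.6 and 39.1 FPKM in Sham, against 155.4, 214.8 and 141.6 FPKM in PEL_3d, and each lesioned library lay above both controls. The log2 fold change was 2.04 (SE 0.17, edgeR adjusted p = 6.42e-06), a 4.12-fold higher level, and it ranged from 1.86 to 2.16 with 1 library left out. With the library labelled Sham 1 kept, it was 2.62 (adjusted p = 0.171, edgeR). At this time Gal had a higher FPKM than Avp and Oxt in every PEL_3d library, which was the reverse of the order in both Sham libraries.

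Pdyn and Cartpt differed by less. Pdyn was 42.5 and 42.2 FPKM in Sham and 29.0, 26.6 and 29.1 FPKM in PEL_3d, with no overlap (log2 fold change -0.59, SE 0.07, edgeR adjusted p = 1.14e-04). Cartpt was 61.5 and 50.6 FPKM in Sham and 43.6, 45.3 and 49.8 FPKM in PEL_3d, where the upper lesioned library came close to the lower Sham library. Its log2 fold change was -0.32 (SE 0.11, edgeR adjusted p = 0.0381). That call was lost without PEL_3d 1 (-0.27, adjusted p = 0.108), without PEL_3d 2 (-0.29, adjusted p = 0.0628) and without Sham 2 (-0.14, adjusted p = 0.421), as well as in 1 fit over all hypothalamic groups (-0.32, adjusted p = 0.102), all by edgeR.

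**Figure D1:**
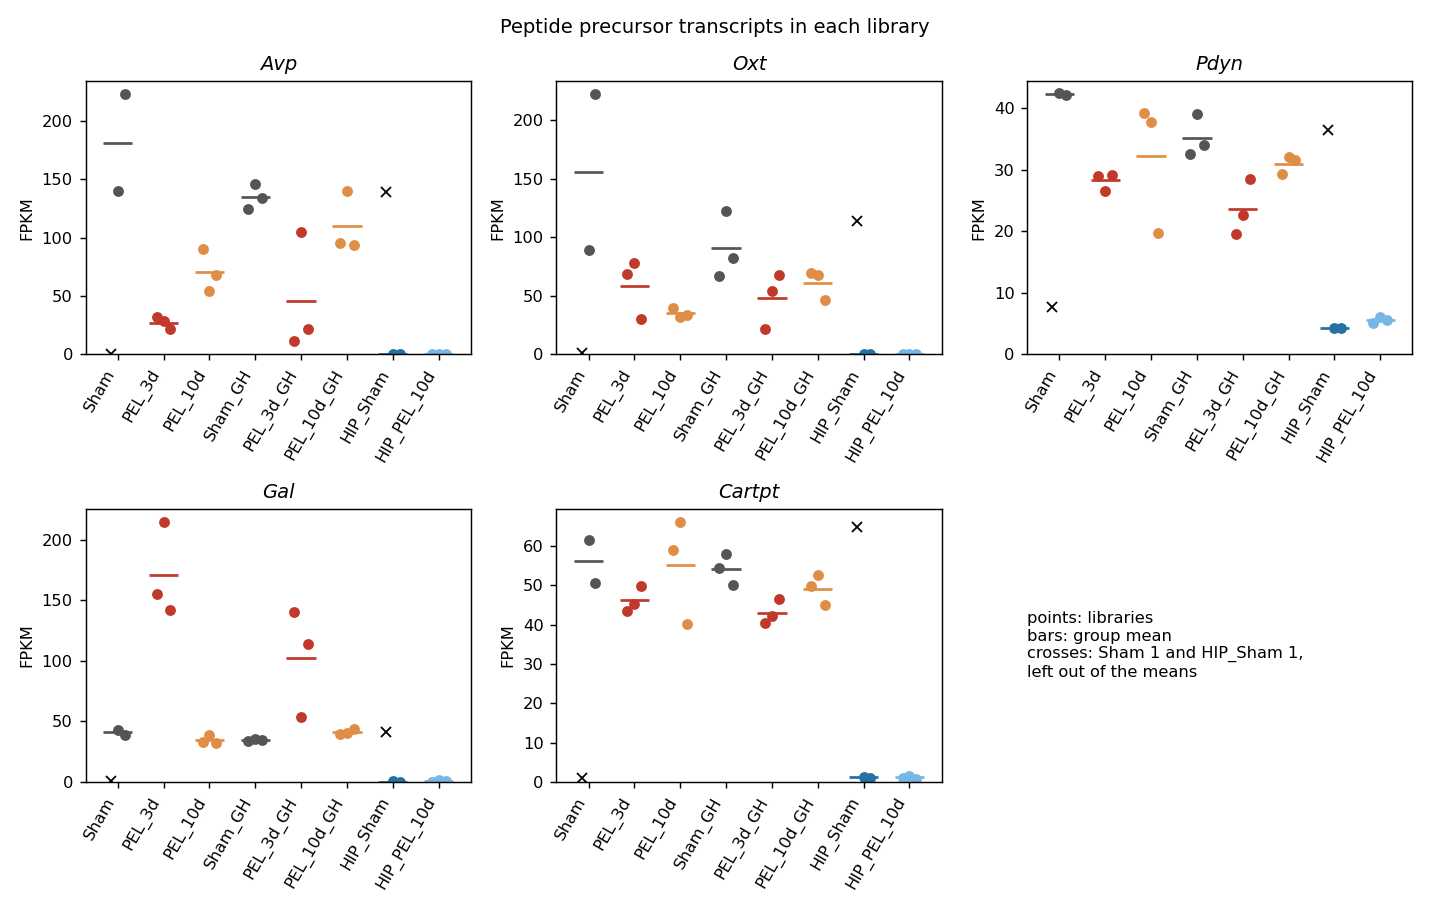
FPKM of Avp, Oxt, Pdyn, Gal and Cartpt in each library (points) with the mean of each group (bars), over 6 hypothalamic and 2 hippocampal groups. Crosses mark the libraries labelled Sham 1 and HIP_Sham 1, which stand at the level of the other tissue. Among the hypothalamic groups, the mean of Avp is lowest and that of Gal highest in PEL_3d and PEL_3d_GH.

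At day 10 after the lesion the hormone genes were lower than in Sham. Avp and Oxt passed by edgeR's quasi-likelihood test, and Pdyn, Gal and Cartpt did not pass the threshold, so 2 of 5 members were called against 9.4% of 14801 genes in either direction (7.97% higher and 1.43% lower). The same Sham libraries serve as controls for both days.

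Avp stood at 89.9, 54.2 and 67.9 FPKM in PEL_10d, below both Sham libraries. Its log2 fold change was -1.38 (SE 0.22, edgeR adjusted p = 0.00604). Without Sham 3 this was -1.02, and with all hypothalamic groups in 1 fit it was -1.37 (adjusted p = 0.102, edgeR). The adjusted p spanned 1.01e-06 to 0.907 over the alternatives, and the highest came with the library labelled Sham 1 kept.

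Oxt stood at 39.6, 32.1 and 33.6 FPKM in PEL_10d, a narrow group that lay below every Sham library. The log2 fold change was -2.17 (SE 0.31, edgeR adjusted p = 0.00396), or 4.50-fold lower, and it ranged from -2.68 without Sham 2 to -1.37 without Sham 3. For both genes added together the log2 fold change was -1.68 (adjusted p = 0.00435, edgeR).

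Gal was back near the control level, at 33.3, 39.1 and 31.8 FPKM in PEL_10d, and its highest library overlapped the Sham libraries (log2 fold change -0.25, adjusted p = 0.216, edgeR). Pdyn was 39.1, 37.8 and 19.7 FPKM, where PEL_10d 3 was far below the other libraries of its group (log2 fold change -0.40, adjusted p = 0.332, edgeR). Cartpt was 59.0, 66.2 and 40.2 FPKM and also lowest in PEL_10d 3 (log2 fold change -0.053, adjusted p = 0.895, edgeR). Genes of the arcuate nucleus were low in that library too. In PEL_10d 1, 2 and 3, Agrp was 6.94, 3.31 and 0.177 FPKM, Npy 81.7, 54.6 and 13.4 FPKM, Pomc 80.2, 56.5 and 10.4 FPKM and Ghrh 16.0, 14.4 and 2.19 FPKM. Without PEL_10d 3 the log2 fold change of Pdyn was -0.15 and that of Cartpt 0.12, and the part of these genes' levels in the values was not tested.

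The direct comparison of PEL_10d with PEL_3d does not use the Sham libraries. Avp was higher and Gal lower at day 10, so 2 of 5 members were called, against 18.5% of 14807 genes (6.33% higher and 12.2% lower). All 3 PEL_10d libraries exceeded all 3 PEL_3d libraries for Avp, with a log2 fold change of 1.38 (SE 0.19, edgeR adjusted p = 0.00113). This Avp call did not pass in 1 fit over all hypothalamic groups (log2 fold change 1.39, adjusted p = 0.0609), the highest of its alternatives, which began at 7.24e-12. For Gal the log2 fold change was -2.28 (SE 0.15, edgeR adjusted p = 2.06e-05), and again no library overlapped.

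Oxt did not rise with Avp between the days. Its log2 fold change from day 3 to day 10 was -0.73 (SE 0.28, edgeR adjusted p = 0.105), and the groups overlapped through PEL_3d 3 at 29.8 FPKM. Without PEL_3d 3 it was -1.05 (adjusted p = 0.00107, edgeR). Pdyn and Cartpt had log2 fold changes of 0.20 and 0.28 (adjusted p = 0.545 and 0.243, edgeR), and without PEL_10d 3 these became 0.44 and 0.45 (adjusted p = 0.00552 and 0.0178, edgeR). Added together, Avp and Oxt had a log2 fold change of 0.34 (adjusted p = 0.344, edgeR), so the summed hormone transcripts did not differ detectably between the days.

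The balance of the hormone genes was read as the share of Oxt in the summed FPKM of Avp and Oxt. It was 38.9% and 49.9% in Sham, 58.0% to 73.4% in PEL_3d and 30.6% to 37.2% in PEL_10d. Oxt thus exceeded Avp in every PEL_3d library, and Avp exceeded Oxt in every PEL_10d library. With GH the share was 65.6%, 34.1% and 75.8% in PEL_3d_GH, so that PEL_3d_GH 2 stood at the level of PEL_10d. It was 32.7% to 42.0% in PEL_10d_GH and 34.9% to 45.6% in Sham_GH. Between PEL_10d and PEL_3d the share differed by -32.9 percentage points (two-sided p = 0.1 by an exact permutation test, which 3 against 3 libraries cannot go below, and 0.333 after Benjamini-Hochberg adjustment over 5 comparisons). The means were 66.5% ± 7.85 (SD, n = 3) and 33.6% ± 3.34 (SD, n = 3). Between GH and no GH the share differed by -8.06 percentage points at day 3 and 2.33 at day 10 (exact permutation p = 0.7 and 0.6, and 0.7 for both after adjustment). Since reads in the shared run were divided between the genes by estimate, the share depends on that division. The counts had no decimals in PEL_3d 2 and 3, with shares of 73.4% and 58.0%. Nor had they in PEL_10d 2 and 3, with shares of 37.2% and 33.1%. The part of the division in the difference between the days was not tested.

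**Figure D2:**
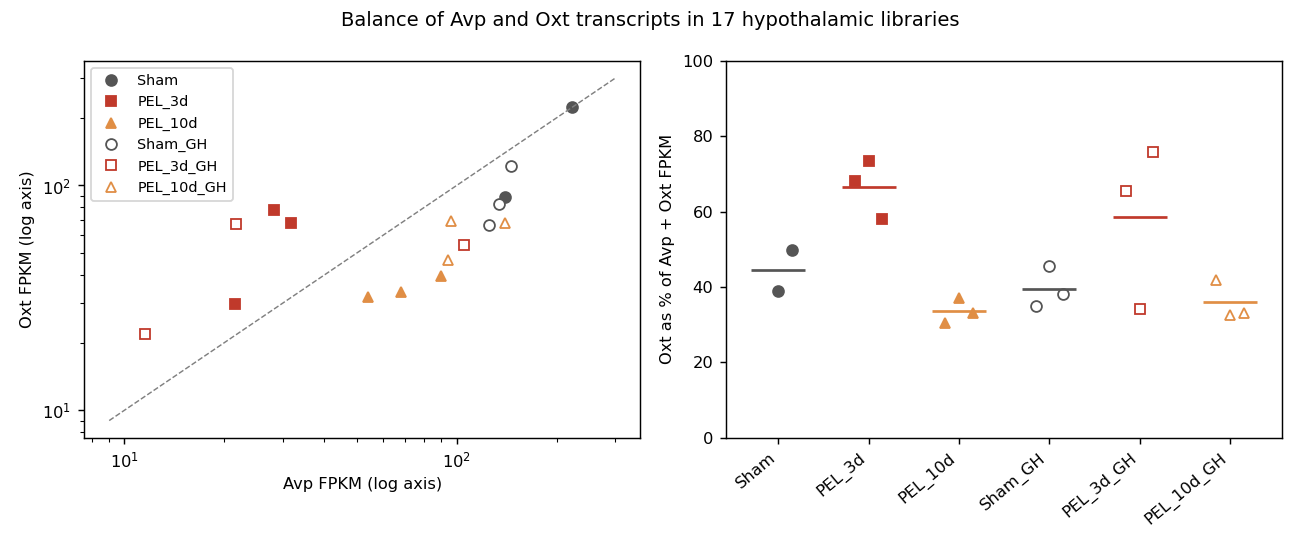
Left, Avp against Oxt in FPKM on log axes for 17 hypothalamic libraries, with a dashed line of equal level. Right, Oxt as a percentage of summed Avp and Oxt FPKM in each library, with group means as bars. The 3 PEL_3d libraries lie at 58.0% to 73.4% and the 3 PEL_10d libraries at 30.6% to 37.2%.

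The GH groups allow the lesion to be compared within treated mice, with controls that the untreated comparison did not use. All 5 members passed again in PEL_3d_GH against Sham_GH by edgeR's quasi-likelihood test, against 52.1% of 14743 genes (26.9% higher and 25.2% lower). Gal was 33.6, 35.3 and 34.7 FPKM in Sham_GH and 140.1, 53.7 and 114.3 FPKM in PEL_3d_GH (log2 fold change 1.55, SE 0.27, edgeR adjusted p = 8.90e-04). Pdyn was 32.5, 39.0 and 34.0 FPKM against 19.6, 22.6 and 28.5 FPKM (log2 fold change -0.59, SE 0.12, edgeR adjusted p = 0.00261). For Avp, Pdyn, Gal and Cartpt no treated lesion library overlapped the treated controls, in a comparison where 52.1% of genes were called. The share of all genes without overlap was not computed here.

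Avp was 125.0, 145.8 and 134.3 FPKM in Sham_GH and 11.5, 104.9 and 21.6 FPKM in PEL_3d_GH. PEL_3d_GH 2 stood far from the other libraries of its group for Avp, and it was also the library with the lowest Gal. In that library Atf3, which encodes a transcription factor induced in injured neurons, was 13.6 FPKM, against 17.6 and 16.1 FPKM in PEL_3d_GH 1 and 3 and 0.693 to 0.968 FPKM in Sham_GH. Sprr1a, another gene induced by axon injury, was 12.5 FPKM there, against 32.3 and 23.7 FPKM. The Avp log2 fold change was -1.58 (SE 0.57, edgeR adjusted p = 0.0402), and without PEL_3d_GH 2 it was -3.04. The call was lost with any 1 of the 5 other libraries left out (adjusted p = 0.0505 to 0.10, edgeR) and under DESeq2 (adjusted p = 0.139).

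Oxt was 67.0, 122.3 and 82.5 FPKM in Sham_GH and 22.0, 54.2 and 67.6 FPKM in PEL_3d_GH, which overlapped by a narrow margin. Its log2 fold change was -0.94 (SE 0.33, edgeR adjusted p = 0.0372). The call was lost without PEL_3d_GH 1 (-0.59), Sham_GH 2 (-0.66) or Sham_GH 3 (-0.99), under DESeq2 (adjusted p = 0.122) and in 1 fit over all groups (adjusted p = 0.0520). Cartpt was 54.5, 57.9 and 50.1 FPKM against 40.4, 42.3 and 46.5 FPKM, with no overlap (log2 fold change -0.36, adjusted p = 0.00455, edgeR). For Avp and Oxt added together the log2 fold change was -1.30 (adjusted p = 0.0194, edgeR).

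At day 10 with GH the hormone genes did not pass the threshold by edgeR as designed. Of the 5 members, 1 was called against 30.9% of 14686 genes (17.7% higher and 13.3% lower), namely Gal, at 39.7, 40.4 and 43.7 FPKM in PEL_10d_GH (log2 fold change 0.24, SE 0.07, edgeR adjusted p = 0.0317). This small difference lost its call with any 1 of 5 libraries left out, all but PEL_10d_GH 1 (adjusted p = 0.0710 to 0.117, edgeR), under DESeq2 (adjusted p = 0.0816) and in 1 fit over all groups (adjusted p = 0.487).

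Avp was 95.9, 139.8 and 93.9 FPKM in PEL_10d_GH and reached into the range of Sham_GH, with a log2 fold change of -0.32 (SE 0.14, edgeR adjusted p = 0.107). Without PEL_10d_GH 2 this became -0.54 (adjusted p = 0.00161, edgeR), and DESeq2 called it (-0.32, adjusted p = 0.0449). Oxt was 69.3, 67.9 and 46.7 FPKM, with a log2 fold change of -0.59 (SE 0.21, edgeR adjusted p = 0.0547). It passed without PEL_10d_GH 1 (-0.69, adjusted p = 0.0383) or without Sham_GH 1 (-0.77, adjusted p = 0.0253), and with no filter on low counts (-0.59, adjusted p = 0.0369), all by edgeR. Pdyn and Cartpt had log2 fold changes of -0.20 and -0.18 (adjusted p = 0.0595 and 0.115, edgeR).

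**Figure D3:**
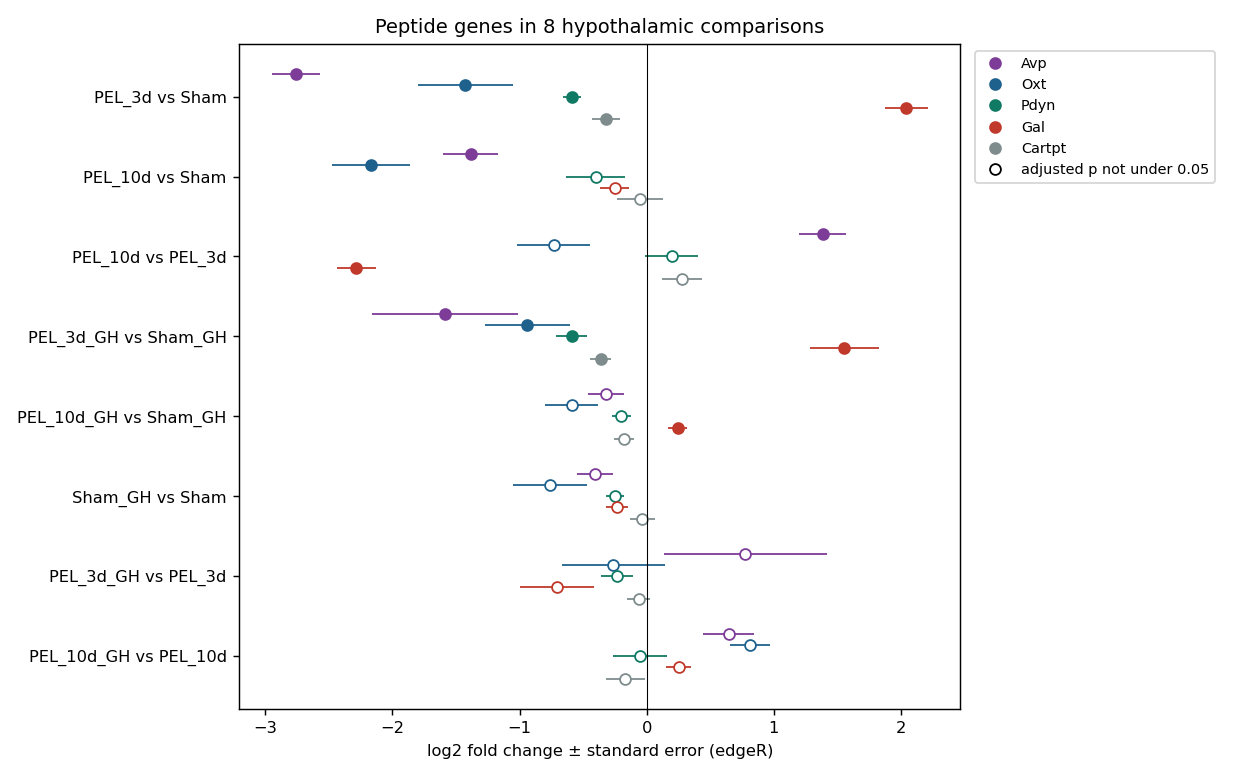
Log2 fold change with its standard error (edgeR) for the 5 peptide genes in 8 hypothalamic comparisons. Filled points passed an adjusted p of 0.05 and open points did not. All 5 genes are filled at day 3, with and without GH, whereas the 3 comparisons of GH with no GH hold open points only.

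The comparisons of GH with no GH asked how treated libraries stood against untreated ones of the same surgical group. None of the 5 members passed in any of them, by edgeR's quasi-likelihood test. The genes called were 1.09% of all tested in Sham_GH against Sham, 0.027% in PEL_3d_GH against PEL_3d and 0 of 14763 in PEL_10d_GH against PEL_10d. In the last comparison 550 genes were higher and 356 lower at an unadjusted p under 0.05, and DESeq2 called 36 genes.

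Oxt and Avp were higher with GH at day 10, as values that missed the threshold. All 3 PEL_10d_GH libraries lay above all 3 PEL_10d libraries for Oxt (log2 fold change 0.81, SE 0.16, edgeR unadjusted p = 6.02e-04 and adjusted p = 0.386). DESeq2 called this difference (0.81, adjusted p = 0.0021), at the low end of a range that reached 1 over the alternatives. Avp also showed no overlap (log2 fold change 0.65, SE 0.20, edgeR adjusted p = 0.746), and the sum of both genes had a log2 fold change of 0.70 (adjusted p = 0.620, edgeR). Gal was 0.25 higher on the log2 scale (adjusted p = 0.791, edgeR), again without overlap. The gap was narrow, at 39.7 FPKM in PEL_10d_GH 1 against 39.1 FPKM in PEL_10d 2. The groups did not overlap for 3 of 5 members, against 11.5% of 14763 genes in either direction.

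At day 3 the GH libraries were more spread. Gal had a log2 fold change of -0.71 with GH (SE 0.29, edgeR adjusted p = 0.729), and its 3 libraries lay below the lowest PEL_3d library at 141.6 FPKM, narrowly so for PEL_3d_GH 1 at 140.1 FPKM. Without PEL_3d_GH 2 the log2 fold change was -0.40, and without PEL_3d_GH 1 it was -0.99. Of 14798 genes, 12.1% had no overlap between these groups in either direction. For Avp the log2 fold change was 0.78 with a standard error of 0.64 (adjusted p = 0.875, edgeR), and without PEL_3d_GH 2 it was -0.68. No direction can be read for Avp from these libraries.

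In Sham mice all 5 members had a negative log2 fold change with GH. The values were -0.41 for Avp (adjusted p = 0.183), -0.76 for Oxt (adjusted p = 0.239), -0.25 for Pdyn (adjusted p = 0.125), -0.23 for Gal (adjusted p = 0.220) and -0.034 for Cartpt (adjusted p = 0.907), all by edgeR. The pair of Sham libraries decided much of this. Without Sham 2, Avp had -0.70 (adjusted p = 0.00859) and Oxt -1.26 (adjusted p = 0.0389), whereas without Sham 3, Avp had -0.038 and Oxt 0.039. Without Sham_GH 2, Pdyn had -0.31 (adjusted p = 0.0488).

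Whether the lesion effect differed with GH was tested as an interaction. At day 3, 0.0462% of 15164 genes passed and none of the 5 members did. At day 10, 0 of 15116 genes passed (676 higher and 690 lower at an unadjusted p under 0.05 by edgeR, and 97 called by DESeq2), and the log2 differences of the members were 1.57 for Oxt, 1.06 for Avp and 0.49 for Gal, each with an adjusted p of 0.277 by edgeR. Without Sham 3 the difference was 0.79 for Oxt and 0.70 for Avp, and without Sham 2 it was 2.08 and 1.34. The log2 fold changes against the matching Sham group were thus less negative with GH for Avp and Oxt, by differences that did not pass the threshold.

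Ordered by mean FPKM, Avp ran from Sham (182 ± 58.9, SD, n = 2) through Sham_GH (135 ± 10.4, n = 3), PEL_10d_GH (110 ± 26.0, n = 3), PEL_10d (70.7 ± 18.04, n = 3) and PEL_3d_GH (46.0 ± 51.3, n = 3) to PEL_3d (27.2 ± 5.19, n = 3). Of these neighbours PEL_10d_GH and PEL_10d did not overlap, and the others did. Oxt ran from Sham (156 ± 94.3) through Sham_GH (90.6 ± 28.5), PEL_10d_GH (61.3 ± 12.7), PEL_3d (58.6 ± 25.4) and PEL_3d_GH (47.9 ± 23.5) to PEL_10d (35.1 ± 3.96), and every neighbour overlapped the next. The group with the lowest mean was thus PEL_3d for Avp and PEL_10d for Oxt.

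Gal ran from PEL_3d (171 ± 38.9) and PEL_3d_GH (103 ± 44.3) to PEL_10d_GH (41.3 ± 2.16), Sham (40.9 ± 2.47), PEL_10d (34.8 ± 3.87) and Sham_GH (34.5 ± 0.891). The day 3 groups overlapped neither each other nor the rest, while the other neighbours overlapped. Pdyn ran from Sham (42.3 ± 0.227) through Sham_GH (35.2 ± 3.40), PEL_10d (32.2 ± 10.8), PEL_10d_GH (30.9 ± 1.47) and PEL_3d (28.2 ± 1.46) to PEL_3d_GH (23.6 ± 4.52), with gaps between Sham and Sham_GH and between PEL_10d_GH and PEL_3d. Cartpt was the flattest of the 5, from 56.1 ± 7.70 in Sham to 43.1 ± 3.14 in PEL_3d_GH, with overlap at every step.

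Across the 17 hypothalamic libraries, the highest level was 19.4 times the lowest for Avp, 10.1 times for Oxt, 6.75 times for Gal, 2.17 times for Pdyn and 1.65 times for Cartpt. As a description over libraries that share groups, Pearson's r of log2 CPM values (counts scaled to library size) was 0.64 between Avp and Oxt, -0.85 between Avp and Gal, -0.24 between Oxt and Gal, and 0.85 between Pdyn and Cartpt. Avp and Gal thus mirrored each other more closely than Oxt and Gal.

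The genes most like each member over these 17 libraries were ranked by the same r among 14322 genes. For Oxt they were Pth2r (0.84), a parathyroid hormone receptor gene, Otp (0.83), a homeobox gene needed for the development of these neurons, and Zscan2 (0.80). For Avp they were Sidt1 (0.89), the zinc transporter gene Slc30a2 (0.87) and Fam13c (0.85). Pdyn was followed by Grhl1 (0.93) and Gm1604a (0.91). Cartpt was followed by the synaptotagmin gene Syt6 (0.87), Plagl1 (0.86) and Sox14 (0.86), and Gal by Gm5152, Gm8922 and Gm8897 (0.99 each).

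In the hippocampus the hormone genes were near the floor. Avp had 1 and 3 counts in HIP_Sham and 0 to 5 counts in HIP_PEL_10d, and Oxt had 0 to 4 counts over these 5 libraries, so neither passed the filter on low counts. Pdyn, which granule cells of the dentate gyrus make, was 4.32 and 4.33 FPKM in HIP_Sham and 5.05, 6.11 and 5.51 FPKM in HIP_PEL_10d. It was higher in every lesioned library, with a log2 fold change of 0.34 (SE 0.13, edgeR adjusted p = 0.148). Of the 3 members tested none was called, against 6.15% of 14191 genes. In the same libraries the sum of 10 choroid plexus markers was 5248 to 6552 FPKM in HIP_Sham and 110 to 945 FPKM in HIP_PEL_10d, and its part in the Pdyn value was not tested.

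Genes that regulate magnocellular neurons were mostly lower at day 3. Of 8 measured, 0 rose and 5 fell in PEL_3d against Sham, with a median log2 fold change of -0.52 against -0.011 over all genes, of which 18.2% were called lower. The 11 hypothalamic marker genes, which share Otp and Sim1 with this list, fell too, with 9 lower and a median of -0.68, and at day 10 with 1 lower and a median of -0.33. Their part in the values of the members and lists was not tested. The largest falls were in Rasd1 (-0.67), an osmotically induced small GTPase gene, Sim1 (-0.56), a transcription factor gene of the PVN and SON, and Caprin2 (-0.55), whose product binds Avp mRNA. Without Sham 3 the calls of Rasd1 (-0.35, adjusted p = 0.287), Sim1 (-0.52, adjusted p = 0.0520) and Caprin2 (-0.44, adjusted p = 0.0970) were lost by edgeR, and that of Rasd1 also without PEL_3d 3 (-0.61, adjusted p = 0.0666). At day 10, when 1.43% of all genes were lower, the list held 1 fall, Otp at -0.59 (adjusted p = 0.0209, edgeR), which was lost without Sham 2 (-0.68) or Sham 3 (-0.48), and its median was -0.39. The 10 neuron markers also moved at day 3, with 8 lower and a median of -0.33, and at day 10 2 of them were lower.

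With GH the regulator list had 1 gene higher and 4 lower at day 3 against Sham_GH, with a median of -0.37, where 26.9% of all genes were higher and 25.2% lower. Of the 10 neuron markers, 9 were lower in the same comparison, with a median of -0.54, and 9 were lower at day 10 with GH, with a median of -0.30. Of the 11 hypothalamic markers, 4 were lower at day 3 with GH (median -0.46), and 1 was higher and 3 were lower at day 10 (median -0.12). At day 3 with GH, 10 of 10 microglia and macrophage markers were higher (median 3.17). The part of these markers in the list values was not tested. Creb3l1, which encodes a transcription factor that acts on Avp, was higher (0.93, adjusted p = 4.44e-04, edgeR). Sim1 (-0.95), Nos1 (-0.92), the neuronal nitric oxide synthase gene, and Pou3f2 (-0.40) were lower. At day 10 with GH Creb3l1 was again higher (0.69) and Nos1 (-0.50) and Sim1 (-0.49) lower, where the call of Sim1 was lost without Sham_GH 2 (-0.42, adjusted p = 0.0530, edgeR). From day 3 to day 10 without GH, 1 regulator passed, Nos1 at 0.25, where 6.33% of all genes were higher and 12.2% lower. The Nos1 call was lost without PEL_3d 1 (0.26), PEL_3d 3 (0.22) or PEL_10d 2 (0.20).

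Genes of prohormone processing and dense-core granules were mostly lower at day 3. Of 11 measured, 0 rose and 8 fell, against 18.2% of all genes lower, with a median of -0.33 beside -0.33 for the neuron markers. The largest falls were in Pcsk1 (-0.81), the gene of prohormone convertase 1, Chgb (-0.52), which encodes the granule protein chromogranin B, and Scg5 (-0.41), which encodes a chaperone of prohormone convertase 2. The call of Scg5 was lost without Sham 2 (-0.39) or Sham 3 (-0.43). Under GH at day 3, 0 rose and 9 fell (median -0.45) against 25.2% of all genes lower, led by Pcsk1 (-0.72), Pcsk2 (-0.56) and Pam (-0.56), the gene of the enzyme that amidates vasopressin and oxytocin. This median stood beside that of -0.54 for the neuron markers.

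By day 10 the processing list had 1 gene higher than in Sham, Cpe at 0.40, the carboxypeptidase E gene, and 1 lower, Chgb at -0.27, with a median of -0.15, against 7.97% of all genes higher and 1.43% lower. Both calls were lost without Sham 2 (0.48 and -0.25) or Sham 3 (0.33 and -0.29), and that of Chgb without PEL_10d 3 (-0.24). Between the days, 4 were higher at day 10, among them Cpe (0.56), Pcsk1 (0.47) and Pam (0.28), and 1 was lower, the granule peptide gene Vgf (-0.37), where 6.33% of all genes were higher and 12.2% lower. The median of the list was 0.26, beside 0.23 for the 10 neuron markers, of which 3 were higher and 1 was lower. The Vgf call was lost with any 1 of 5 libraries left out, all but PEL_3d 2, and the Pam call without PEL_3d 3 (0.26) or PEL_10d 2 (0.24). At day 10 with GH against Sham_GH, Cpe was higher (0.38) and Pcsk1 (-0.32), Pam (-0.31) and Chgb (-0.27) were lower, so 1 rose and 3 fell of 11, against 17.7% and 13.3% of all genes.

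The list of receptor genes of these peptides also holds the enzyme gene Lnpep. Each gene of this list that was called between lesion and sham in the hypothalamus was lower after the lesion. Of 9 listed, 5 passed the filter on low counts at day 3, and 1 fell, against 18.2% of all genes lower. This was the kappa opioid receptor gene Oprk1 at -0.72 (adjusted p = 0.00375, edgeR), on whose product dynorphins act. It was lost without Sham 2 (-0.51, adjusted p = 0.0815, edgeR). At day 10, 0 of 6 tested passed, against 9.4% of all genes. With GH at day 3 against Sham_GH, 4 of 5 fell, Lnpep among them (-0.31), against 25.2% of all genes. The others were Oprk1 (-0.71), the oxytocin receptor gene Oxtr (-0.66) and the galanin receptor gene Galr1 (-0.47). The Galr1 call was lost with any 1 of 4 libraries left out (adjusted p = 0.0743 to 0.14, edgeR). At day 10 with GH, Oxtr (-0.44), Oprk1 (-0.43) and Lnpep (-0.24), which encodes the aminopeptidase that degrades oxytocin, were lower, or 3 of 5 tested against 13.3% of all genes. The neuron markers fell in both comparisons, as given above. The call of Oxtr was lost without PEL_10d_GH 2 (-0.37), Sham_GH 1 (-0.39) or Sham_GH 2 (-0.44), and that of Lnpep without Sham_GH 2 (-0.17).

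Other hypothalamic peptide genes show how the 5 members compare with their neighbours. Of 23 tested at day 3, 1 rose and 5 fell, with a median of -0.066, against 22.2% of all genes higher and 18.2% lower. Npvf, the gene of an RFamide peptide, was higher (0.99), and Ghrh (-1.74), the growth hormone-releasing hormone gene, Agrp (-1.35) and Pomc (-0.76), the feeding peptides of the arcuate nucleus, were lower. Without Sham 2, the calls of Agrp (-1.42, adjusted p = 0.0679) and Pomc (-0.65, adjusted p = 0.0533) were lost, and without Sham 3 those of Agrp (-1.28, adjusted p = 0.0890) and Npvf (0.74, adjusted p = 0.0642), all by edgeR. At day 10, 1 of 23 passed against 9.4% of all genes, Adcyap1 at 0.30, and this was lost with any 1 of 4 libraries left out (adjusted p = 0.0526 to 0.286, edgeR). Avp and Oxt, at -1.38 and -2.17, lay below all 23 genes at that day, of which the lowest stood at -0.85.

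Between the days, Adcyap1 was higher (0.25) and Npvf lower (-1.05), both calls lost with several libraries left out in turn. In Sham_GH against Sham, Cck (1.05) and Adcyap1 (0.47) were higher. Without Sham 3 neither passed (0.95, adjusted p = 0.118, and 0.41, adjusted p = 0.137), nor did Cck without Sham 2 (1.15, adjusted p = 0.0535), all by edgeR.

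In the treated mice at day 3, 1 of 23 peptide genes rose and 4 fell, against 26.9% and 25.2% of all genes. Gnrh1 was higher (1.18), with a call lost without any 1 of 4 libraries (adjusted p = 0.0570 to 0.106, edgeR), and Agrp (-1.13), Cck (-1.03) and Adcyap1 (-0.65) were lower. At day 10 with GH, 3 rose and 4 fell, against 17.7% and 13.3% of all genes. Crh, the corticotropin-releasing hormone gene of the PVN, rose by 1.73 (adjusted p = 0.00169, edgeR), and Cck (-1.23), Agrp (-1.04) and Tac1 (-0.46) were lower. In 1 fit over all groups the calls of Agrp were lost at day 3 (-1.11, adjusted p = 0.0767) and at day 10 (-1.04, adjusted p = 0.141), both by edgeR. Nmb was higher (0.78), with a call lost without any 1 of 4 libraries (adjusted p = 0.0571 to 0.109, edgeR). Pomc was at 5.20, which rested on PEL_10d_GH 3, and without that library it was -0.88 (adjusted p = 0.00683, edgeR).

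Of the genes of the neuronal response to axon injury, 3 of 8 rose and 2 fell at day 3, with a median log2 fold change of 0.26, against 22.2% of all genes higher and 18.2% lower. Sprr1a, Atf3 (4.97, and 4.53 to 5.63 with 1 library left out) and Jun (0.45) were higher. Sprr1a was nearly absent from the controls, at 0.164 and 0.398 FPKM in Sham and 0 to 0.238 FPKM in Sham_GH, so that its fold is poorly measured, and its levels were 24.9 to 38.5 FPKM in PEL_3d and 12.5 to 32.3 FPKM in PEL_3d_GH. Ecel1 (-0.37) and Gap43 (-0.23) were lower, where the Ecel1 call was lost in 1 fit over all groups (-0.36, adjusted p = 0.164, edgeR) and the Gap43 call with any 1 of 4 libraries left out (adjusted p = 0.123 to 0.239, edgeR). At day 10 Atf3 (3.74, and 3.29 to 4.40 with 1 library left out) and Sprr1a (3.61 to 3.87 FPKM in PEL_10d) passed, and Gal did not. From day 3 to day 10 Sprr1a (-3.12), Atf3 (-1.22) and Sox11 (-0.53) fell. With GH, Sprr1a, Atf3 (4.26) and Jun (0.67) were higher at day 3, and Sprr1a (5.12 to 7.68 FPKM in PEL_10d_GH), Atf3 (3.49) and Gadd45a (0.64) at day 10. The Gadd45a call was lost with any 1 of 4 libraries left out, and its value ranged from 0.44 to 0.75 in the fits with 1 library left out. With GH, 3 of 8 rose and 2 fell at day 3, against 26.9% and 25.2% of all genes, and 4 rose and 1 fell at day 10, against 17.7% and 13.3%. Gap43 (-0.29) and Stmn2 (-0.26) at day 3 and Stmn2 (-0.23) at day 10 were lower, calls that did not hold in several of the fits with 1 library left out.

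**Figure D4:**
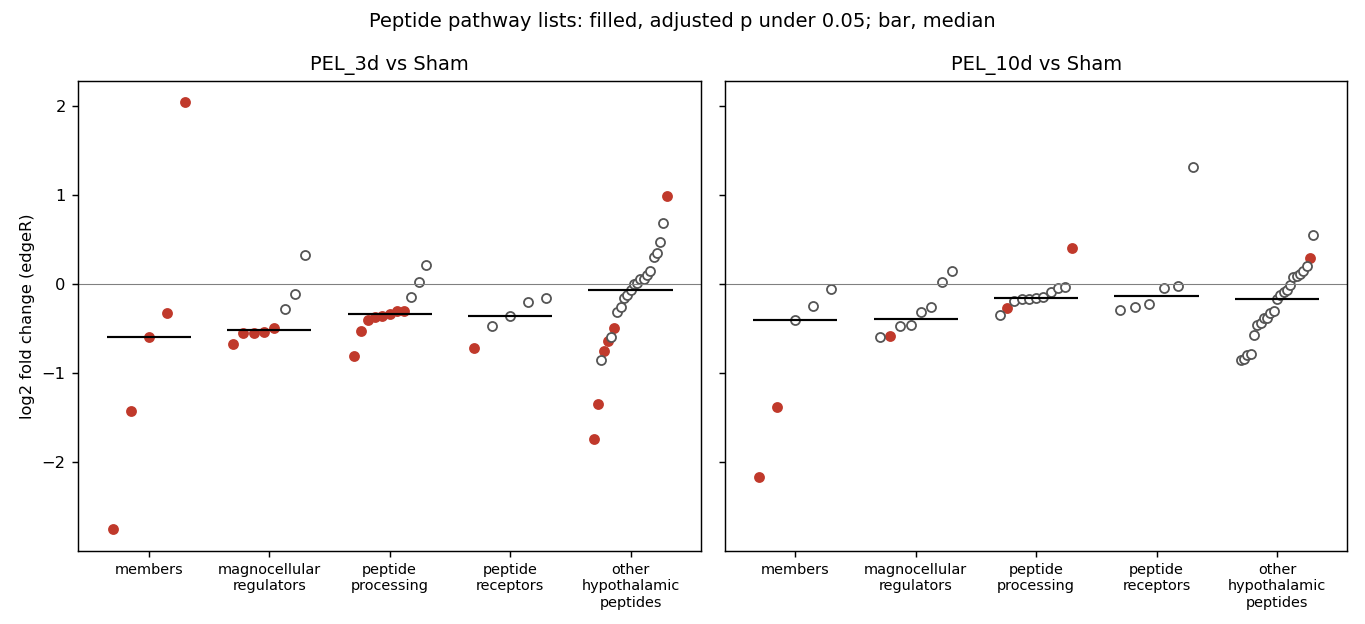
Log2 fold change (edgeR) of every tested gene of the members and of 4 lists (regulators, processing, receptors and other peptides), in PEL_3d and PEL_10d against Sham. Filled points passed an adjusted p of 0.05 and bars are medians. At day 3 Gal lies above and Avp below the genes of these 4 lists, and at day 10 Oxt and Avp are the lowest points.

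Between HIP_PEL_10d and HIP_Sham, the genes called were 2 of 6 tested regulators, 2 of 11 processing genes and 1 of 15 other peptide genes. They were also 1 of 7 injury genes and 0 of 4 genes of the receptor list, against 6.15% of all genes. Grp (2.25), Gap43 (0.76), Nos1 (0.56), Arnt2 (0.45) and Pcsk1n (0.31) were higher and Chgb (-0.51) lower. Each of these calls was lost when either HIP_Sham library was left out (adjusted p = 0.0815 to 0.371, edgeR). Of the choroid plexus markers, 9 of 10 were lower in HIP_PEL_10d, with a median of -3.52, and their part in these calls was not tested.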

How the data were processed

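RNA was measured in 24 libraries of mouse hypothalamus and hippocampus. Per gene and library, an estimated count was deposited by the authors, in which 8.22% of values are not whole numbers, in 3410 genes. The same deposited table gives FPKM values, which the authors normalized for gene length and library size and which were used as deposited. Per the study's methods, reads were aligned with Hisat2 and counted with featureCounts, and the submitters' processing notes name GRCm38 and mm10. How reads that fit several genes were divided is not given in the sources used here. Symbols were assigned by Ensembl identifier through a table of gene names (22219 of 22274 matched). Positions came from GENCODE M21 and promoters from RefSeq, and all 5 members matched.

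Counts were rounded, normalized by TMM and tested by the quasi-likelihood F-test of edgeR 4.0.16 (R 4.3.3). Genes had to pass filterByExpr (minimum count 10), p-values were adjusted after Benjamini-Hochberg over every gene tested, and 0.05 was the threshold. A comparison was fitted on its own groups, and an interaction on 4 groups. The Oxt share was compared by exact permutation tests with scipy 1.17.1. Pearson's r used log2(TMM CPM + 1) over genes with a mean CPM of at least 1. The fits were tested on simulated data with known changes. Replicates differed beyond sampling noise in every pair. Figures were drawn with matplotlib 3.10.9.

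The alternatives were DESeq2 1.42.0, its size factors in edgeR, no filter on low counts, the replicate number as a block, 1 fit over all groups of the tissue, the libraries labelled Sham 1 and HIP_Sham 1 kept, each library left out in turn and, chosen after seeing the data, Avp and Oxt added into 1 row. A library with HIP in its title and hypothalamus in its tissue field (HIP_Sham 3) was grouped by title. The text names the 5 members, per list and comparison the 3 genes past the threshold that rose most and the 3 that fell most, marker genes that bear on a value, and the 3 genes most like each member, of which 1 is not reported here. Atf3, Sprr1a, Agrp, Npy, Pomc and Ghrh in single libraries were named after their values were seen. The members and lists were chosen with earlier results of these data known.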

Additional observations from a re-analysis of the deposited data

Results flagged for a closer look

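Gal differed in direction between the days when libraries with GH were compared with lesioned libraries without it. The log2 fold change was -0.71 at day 3, where all 3 GH libraries lay below all 3 PEL_3d libraries. It was 0.25 at day 10, where all 3 GH libraries lay above all 3 PEL_10d libraries. Gal was flagged for these gaps, which were narrow. They were 140.1 against 141.6 FPKM at day 3 and 39.7 against 39.1 FPKM at day 10. Of all genes tested, 12.1% had no overlap in either direction at day 3 and 11.5% at day 10. Without PEL_3d_GH 2 the value at day 3 was -0.40, and without PEL_3d_GH 1 it was -0.99. The difference between the days was not tested, and neither value passed the threshold by itself.

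The library labelled HIP_Sham 1, which no comparison above used, held the peptide genes at the level of hypothalamic libraries. Avp was 139 FPKM, Oxt 114 FPKM, Pdyn 36.4 FPKM, Gal 41.6 FPKM and Cartpt 64.9 FPKM. In the other hippocampal libraries Avp reached at most 0.482 FPKM and Oxt at most 0.473 FPKM.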

How the results depend on the processing

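With the libraries labelled Sham 1 and HIP_Sham 1 kept, the genes called were 1683 in PEL_3d against Sham (6035 without them), 269 in PEL_10d against Sham (1392 without) and 0 in Sham_GH against Sham (159 without), in HIP_PEL_10d against HIP_Sham (873 without) and in the day 3 interaction (7 without), and 0 members were called in PEL_3d and PEL_10d against Sham. Log2 fold changes were then -2.16 for Avp, -0.83 for Oxt and 2.62 for Gal at day 3 and -0.79 for Avp, -1.58 for Oxt and 0.32 for Gal at day 10, none past the threshold. Signs turned at day 3 for Cartpt (0.27), Ecel1 (0.19), Gap43 (0.26) and Sim1 (0.044), at day 10 for Pdyn (0.053), Gal (0.32), Cartpt (0.52) and Otp (0.0023), in Sham_GH for Avp (0.17), Pdyn (0.20), Gal (0.33), Cartpt (0.54) and Cck (-1.94), in the hippocampus for Pdyn (-1.29), Gal (-3.61), Gap43 (-0.46) and Pcsk1n (-0.27), and in the interactions for Oxt at day 3 (-0.091) and Pdyn (-0.25) and Gal (-0.080) at day 10.

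DESeq2 called 256 genes in Sham_GH against Sham, 59 in PEL_3d_GH against PEL_3d (4 by edgeR), 36 in PEL_10d_GH against PEL_10d (0 by edgeR), and 144 and 97 in the interactions at day 3 and day 10 (7 and 0 by edgeR). It put Oxt at -1.42 at day 3, past no threshold, and called 1 member in PEL_10d_GH against PEL_10d and 3 in PEL_3d_GH against Sham_GH. Without a filter on low counts, 359 genes passed in Sham_GH against Sham, 8 in PEL_3d_GH against PEL_3d, and 19 and 12 in the interactions. There, 2 members passed in PEL_10d_GH against Sham_GH, and Pdyn in the day 3 interaction was 0.0052. In 1 fit over all groups, 13 genes passed in Sham_GH against Sham, 9 in PEL_3d_GH against PEL_3d, 2 in PEL_10d_GH against PEL_10d, and 0 and 1 in the interactions. The members called were 1 in PEL_10d against Sham, 1 in PEL_10d against PEL_3d and 0 in PEL_10d_GH against Sham_GH, Avp was -1.37 at day 10, and Pdyn in the day 3 interaction was 0.0098. The same fit ended the calls of Agrp, Ecel1, Gap43, Pomc and Sim1 at day 3, Adcyap1 at day 10, Nos1 between the days, Adcyap1 and Cck in Sham_GH against Sham, and with GH those of Agrp at both days and Sim1 at day 10. DESeq2 ended those of Galr1, Gnrh1, Nmb and Oxtr with GH, the block those of Gap43, Galr1 and Pomc (0.81), and DESeq2's size factors that of Pcsk1n in the hippocampus.

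The replicate numbers did not pair the libraries. The correlation of deviations in same-numbered libraries was -0.44 to 0.36 over 40 pairs, with 7 over 0.1. With the number as a block, 317 genes were called in Sham_GH against Sham, 1 in PEL_3d_GH against PEL_3d, 1486 in the hippocampus and 0 in the day 3 interaction, with 1 member in Sham_GH against Sham, 4 in PEL_10d_GH against Sham_GH, and Pdyn at 0.0023 in PEL_10d_GH against PEL_10d. Among the members, the block ended the call of Cartpt in PEL_3d against Sham (-0.26, adjusted p = 0.0836) and gave calls to Pdyn in PEL_10d against Sham (-0.62, adjusted p = 0.0186), to Avp in Sham_GH against Sham (-0.32, adjusted p = 0.0306), and to Avp (-0.34, adjusted p = 0.0235), Oxt (-0.57, adjusted p = 0.0279) and Pdyn (-0.20, adjusted p = 0.029) in PEL_10d_GH against Sham_GH, all by edgeR. With Avp and Oxt added, the log2 fold change was 0.34 from day 3 to day 10 and 0.17 in PEL_3d_GH against PEL_3d, where Oxt alone was negative.

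With 1 library left out, the genes called ranged from 3394 to 6632 in PEL_3d against Sham, 205 to 1486 in PEL_10d against Sham, 1333 to 2799 in PEL_10d against PEL_3d, 44 to 190 in Sham_GH against Sham, 1 to 56 in PEL_3d_GH against PEL_3d, 71 to 1746 in the hippocampus, and 0 to 633 and 0 to 48 in the interactions at day 3 and day 10. The members called were 1 to 2 in PEL_10d against Sham, 2 to 4 in PEL_10d against PEL_3d, 0 to 2 in Sham_GH against Sham, 3 to 5 in PEL_3d_GH against Sham_GH and 0 to 2 in PEL_10d_GH against Sham_GH. At day 3 Oxt was -1.93 to -0.64, and at day 10 Avp was -1.68 to -1.02. Ranges that crossed 0 were those of Cartpt at day 10 (-0.21 to 0.12), in Sham_GH (-0.19 to 0.14) and in the hippocampus (-0.48 to 0.065), Oxt in Sham_GH (-1.26 to 0.039) and in PEL_3d_GH against PEL_3d (-0.61 to 0.082), Avp in the latter (-0.68 to 1.23), Pdyn in PEL_10d_GH against PEL_10d (-0.30 to 0.11) and Pomc in PEL_10d_GH against Sham_GH (-0.88 to 5.78). In the day 3 interaction they were those of Avp (-0.28 to 1.63), Oxt (-0.31 to 0.99), Pdyn (-0.17 to 0.11) and Cartpt (-0.22 to 0.12), and in the day 10 interaction those of Pdyn (-0.051 to 0.35) and Cartpt (-0.31 to 0.035). The cause of these changes was not tested. With 2 Sham libraries the lone one left is assumed to vary like the other group. Avp and Oxt in the hippocampus were limited by depth, at 5 counts or fewer per library.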
